A study of Mus musculus with 38 samples.

Results

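The genes of the proteasome and of its regulators were followed through mouse liver under ad libitum feeding, calorie restriction and fasting. They were chosen by name, as all genes whose symbol opens with Psma, Psmb, Psmc, Psmd, Psme, Psmf or Psmg and a number, which gave 50 of the 21954 genes in the count table. By role they comprised 7 alpha subunits of the core particle, 4 structural and 3 constitutive catalytic beta subunits, 3 catalytic subunits of the immunoproteasome and 2 core subunits restricted to other tissues. The rest were 6 ATPases and 11 other subunits of the 19S regulatory particle, 3 chaperones of its base, 5 activators, 1 inhibitor, 4 chaperones of the core, and Psmc3ip, which matches by symbol only and encodes a protein of meiotic recombination.

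The proteasome degrades proteins that have been tagged with ubiquitin. Its barrel-shaped 20S core holds the proteolytic sites on beta subunits, and the 19S particle docks on the core, recognises ubiquitin chains, removes them and unfolds the substrate with a ring of ATPases. Interferon-responsive catalytic subunits can replace the constitutive ones to form the immunoproteasome, which is known for making peptides for antigen presentation, and in many cells the transcription factor NFE2L1 raises the subunit genes together when proteasome capacity falls short.

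Poly(A) RNA of liver from wild-type female C57BL/6 mice was sequenced in 38 libraries of 13 groups. Liver of calorie-restricted (CR) mice was sampled in CR_0h (n = 2), CR_6h (n = 3), CR_14h (n = 3) and CR_22h (n = 4), liver of fasted (F) mice in F_6h, F_14h and F_22h (n = 3 each), and liver of mice fed ad libitum (AL) in AL_0h (n = 3), AL_6h (n = 2), AL_14h (n = 3) and AL_22h (n = 3). CR mice that missed a meal (CRmm, n = 3) and CR mice given theirs (CRfed, n = 3) were sampled at zeitgeber time 18. Library totals ran from 17131292 to 30152277 expected counts. The event that starts the hours is not labelled, and nor is it stated that replicates are separate animals, so p-values measure the spread between these samples, which may be technical. The labelled ages rise from library to library, between 5 and 44 months, so no age is shared by any pair of groups. If these labels are right, effects of age and of group cannot be told apart.

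Levels are given in CPM (library-scaled counts, TMM method) for a gene across libraries, and in rescaled TPM where genes are compared with each other, since only the latter accounts for transcript length. A log2 fold change is written with its standard error after the ± sign, and adjusted p-values come from edgeR's quasi-likelihood test with the Benjamini-Hochberg method over all 13786 genes tested. A gene was called at an adjusted p under 0.05. Of the 50 members 49 entered the tests, and Psmb11, a core subunit known from the thymus, had 0 counts in all 38 libraries. The lists of hepatocyte markers summed to 63820 to 156637 CPM per library, and those of fat cells and pancreas to at most 12.2 and 37.2 CPM. A library is named by its group and number. The clock gene Dbp went against the labelled time in AL_0h 2 and AL_22h 2, and 5 libraries (AL_0h 3, CR_6h 3, CR_14h 3, CR_22h 3 and CR_22h 4) resembled another diet more than their own over the 1000 most variable genes, among the libraries at 0 to 22 h. These 7 libraries stayed in all results, and the calls gained or lost without them are given beside each comparison. They were chosen on expression in these same data, and none is in AL_6h, AL_14h, an F group, CRmm or CRfed. Where only those groups are compared, leaving the 7 out changes the shared fit and not the libraries compared. CRmm 1, outside the set to which the diet rule was applied, also correlated more with the fasted than with the CR libraries at 0 to 22 h (mean r 0.175 against -0.0515). In bulk liver, fewer cells of a type and less RNA per cell cannot be told apart.

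Per transcript length, genes of the core particle had the highest levels. Psmb6, a constitutive catalytic subunit, had the highest median over the 38 libraries at 194 rescaled TPM (range 95.1 to 307), followed by the structural subunit Psmb1 at 183, the highest of its class with Psmb2 the lowest at 111, and the alpha subunits Psma7 and Psma3 at 166 each. Psma5 was the lowest of the alpha subunits at 64.0. The constitutive catalytic subunits Psmb7 and Psmb5 had medians of 144 and 122. Neighbours in this order overlapped in their ranges over libraries.

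The 19S genes followed at medians of 104 (Psmc1, an ATPase) down to 66.6 (Psmc2) among the ATPases, and 107 (Psmd4, a ubiquitin receptor) down to 44.3 (Psmd14, the deubiquitinase of the lid) among the other subunits. The genes of PA28, an activator ring that opens the core, were of the same order, with 116 for Psme1 and 101 for Psme2. The activators Psme3 and Psme4 and the inhibitor Psmf1 lay at 30.8, 22.1 and 21.4. Assembly chaperones lay between 10.04 (Psmd10, gankyrin) and 23.7 rescaled TPM (Psmg4). The immunoproteasome genes Psmb10, Psmb8 and Psmb9 had medians of 37.4, 36.3 and 12.5, each median below the lowest library of its constitutive counterpart. Psma8, an alpha subunit known from testis, Psme2b, a copy of Psme2 that may share reads with it, and Psmc3ip had medians under 1 rescaled TPM.

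**Figure D1:**
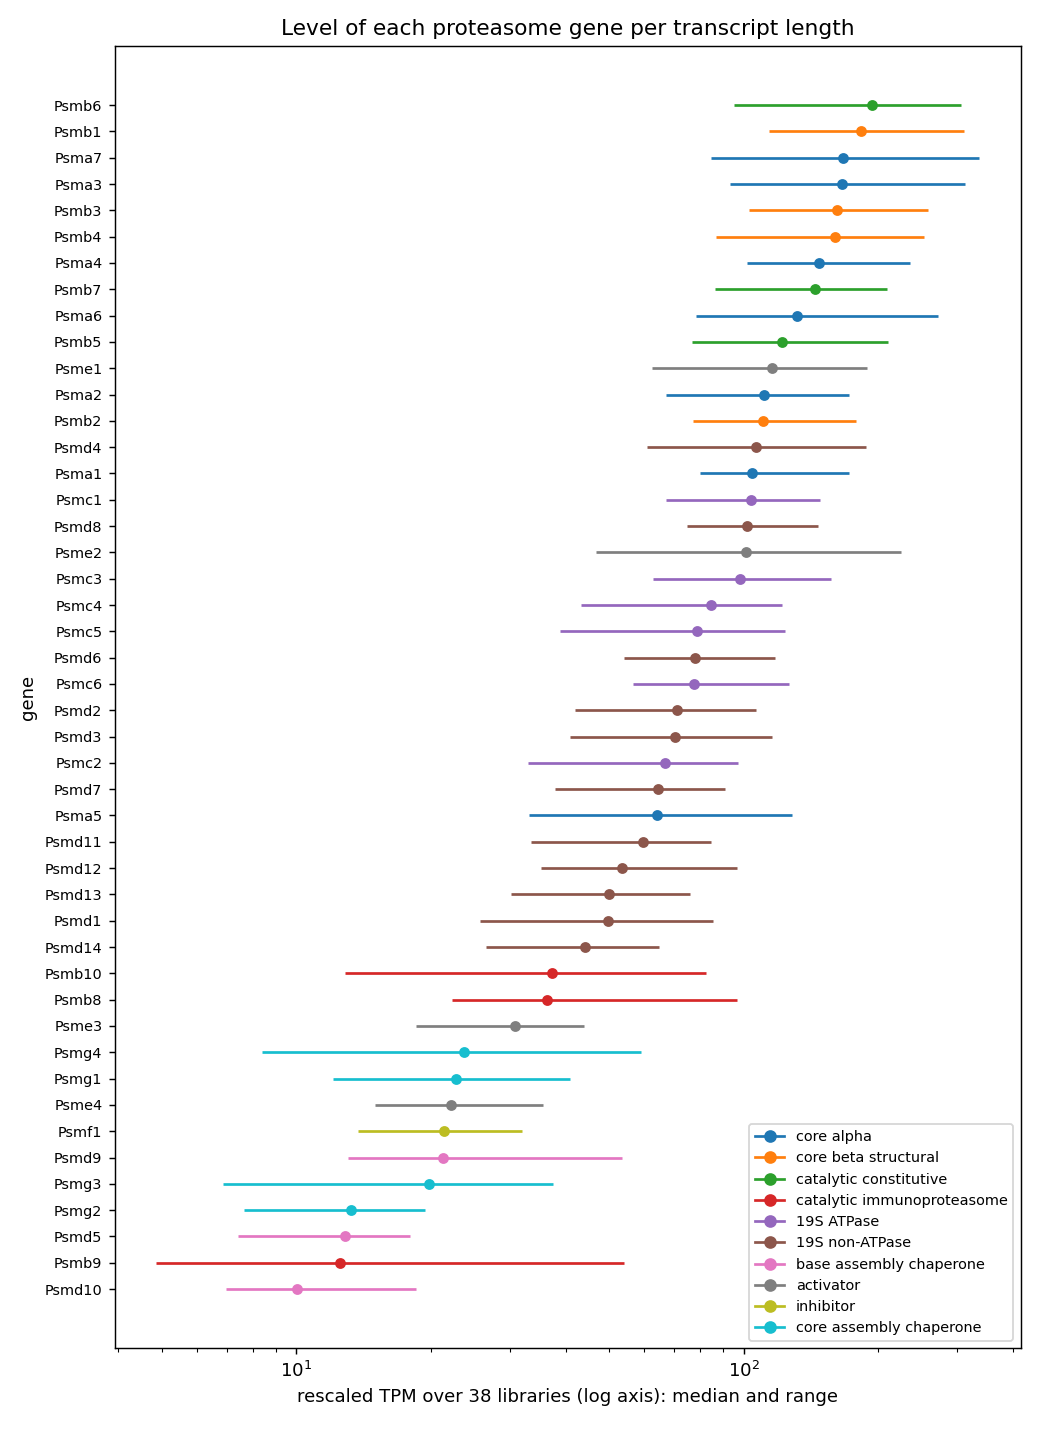
Rescaled TPM of the 46 proteasome genes above the lowest levels on a log axis, with the median over 38 libraries as a point and the lowest and highest library as a line, coloured by role. Core genes lead with Psmb6 at 194, and the immunoproteasome genes lie among the lower members at 37.4 for Psmb10, 36.3 for Psmb8 and 12.5 for Psmb9.

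Apart from Psma8, Psme2b and Psmc3ip, which are near 0, the members whose mean varied most between groups were those of the immunoproteasome. The highest group mean of Psmb9 was 5.07 times its lowest, that of Psmb10 4.73 times and that of Psmb8 3.47 times, and in each the highest group was AL_14h. The other members varied by a factor between 1.40 (Psmd7, a lid subunit) and 2.36 (Psmd1, a scaffold of the 19S base), with Psmg4 at 3.06, Psme2 at 2.87 and Psmd9 at 2.73 above that range. On GRCm38 (GENCODE vM21), Psmb9 (chr17:34181987-34187764, minus strand) and Psmb8 (chr17:34197721-34201454, plus strand) are neighbours within the major histocompatibility complex, and Psme1 (chr14:55578123-55581529, plus strand) and Psme2 (chr14:55587441-55591113, minus strand) are neighbours on chromosome 14. Psmb10 lies on chromosome 8 (chr8:105935735-105938444, minus strand).

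Across the 13 groups the catalytic subunits ran in different orders. Psmb10 averaged lowest in F_22h and F_14h at 11.3 ± 0.720 and 11.6 ± 2.13 CPM, then 19.5 ± 5.61 in F_6h, 20.4 ± 4.34 in CRmm, 23.3 ± 4.29 in CR_6h, 28.4 ± 10.2 in CR_0h, 31.3 ± 9.03 in CR_22h, 32.6 ± 1.61 in AL_6h, 34.6 ± 11.7 in AL_0h, 36.5 ± 4.85 in CR_14h, 42.8 ± 9.19 in CRfed, 44.6 ± 11.5 in AL_22h and 53.4 ± 10.6 in AL_14h (SD, n = 2 to 4 libraries). Neighbours in this order lay within their spread, apart from the step between F_14h and F_6h, where the lowest F_6h library (16.0 CPM) lay above the highest F_14h library (14.0 CPM). Psmb8 averaged lowest in F_22h (14.9 ± 1.68 CPM) and Psmb9 in CRmm (6.30 ± 3.17 CPM), and both were highest in AL_14h, at 51.5 ± 16.6 and 32.0 ± 12.5 CPM. Of the AL groups, AL_0h was the lowest for both genes.

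The constitutive sites did not follow that order. Psmb5 averaged 44.0 ± 2.75 CPM in F_6h, its lowest group, and 89.5 ± 18.9 CPM in CRmm, its highest. Psmb6 averaged 64.5 ± 9.16 CPM in F_14h and Psmb7 78.1 ± 17.8 CPM in CR_6h at the low end, and both were also highest in CRmm, at 116 ± 20.9 and 134 ± 21.3 CPM. Thus CRmm, at or near the low end for the immunoproteasome genes Psmb8 and Psmb9, held the highest means of all 3 constitutive sites, although its libraries overlapped with those of CRfed in each. Psmd4 was lowest in CR_0h (66.9 ± 12.3 CPM) and highest in F_14h (141 ± 12.7 CPM), and Psmd14 was lowest in CR_22h (27.7 ± 4.77 CPM) and highest in AL_6h (52.8 ± 9.78 CPM). Psme1 and Psme2 were lowest in F_14h, at 48.2 ± 1.81 and 31.5 ± 4.80 CPM, and highest in AL_14h, at 104 ± 26.3 and 90.3 ± 36.2 CPM.

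Promoter windows of 300 bases (250 before and 50 after the start, gene strand, RefSeq, GRCm38.p6) were found for 42 of the 50 members and searched on both strands for a core of the interferon-stimulated response element, GAAA, any pair of bases and GAAA again, and a core of the antioxidant response element, TGACNNNGC. Psmb6 and Psmg4, called lower in F_14h than in AL_14h, and Psmd4, called higher, also hold a core, and their windows are not shown. The windows of 4 other genes that differed between diets and hold a core are shown, with the core in capitals, and that of Psmb9 as the immunoproteasome gene of widest range.
Psmb9 (chr17:34187281-34187580, minus strand): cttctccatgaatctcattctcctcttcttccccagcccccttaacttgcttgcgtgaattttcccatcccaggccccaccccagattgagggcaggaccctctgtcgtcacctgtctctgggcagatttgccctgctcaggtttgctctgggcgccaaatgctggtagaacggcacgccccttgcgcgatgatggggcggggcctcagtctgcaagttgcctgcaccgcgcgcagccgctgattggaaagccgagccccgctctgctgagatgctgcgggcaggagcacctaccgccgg
Psme1 (chr14:55578244-55578543, plus strand): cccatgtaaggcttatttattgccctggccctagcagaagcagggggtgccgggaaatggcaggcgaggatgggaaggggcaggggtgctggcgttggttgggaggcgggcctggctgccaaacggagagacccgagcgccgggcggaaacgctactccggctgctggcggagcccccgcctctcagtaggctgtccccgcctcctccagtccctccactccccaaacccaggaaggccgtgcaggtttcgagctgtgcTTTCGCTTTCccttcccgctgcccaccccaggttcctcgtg
Psme4 (chr11:30771525-30771824, plus strand): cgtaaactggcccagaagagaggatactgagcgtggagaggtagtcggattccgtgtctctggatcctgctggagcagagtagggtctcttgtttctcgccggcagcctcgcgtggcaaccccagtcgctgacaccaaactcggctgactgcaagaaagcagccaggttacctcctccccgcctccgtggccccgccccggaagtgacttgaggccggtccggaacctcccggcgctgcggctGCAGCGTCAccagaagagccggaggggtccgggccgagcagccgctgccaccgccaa
Psmd9 (chr5:123227940-123228239, plus strand): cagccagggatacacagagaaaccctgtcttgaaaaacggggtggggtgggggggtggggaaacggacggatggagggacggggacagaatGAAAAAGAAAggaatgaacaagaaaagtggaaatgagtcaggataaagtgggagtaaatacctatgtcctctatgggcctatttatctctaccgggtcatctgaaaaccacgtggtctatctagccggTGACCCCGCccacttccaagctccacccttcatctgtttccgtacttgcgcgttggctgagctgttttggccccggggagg
Psmd12 (chr11:107479278-107479577, plus strand): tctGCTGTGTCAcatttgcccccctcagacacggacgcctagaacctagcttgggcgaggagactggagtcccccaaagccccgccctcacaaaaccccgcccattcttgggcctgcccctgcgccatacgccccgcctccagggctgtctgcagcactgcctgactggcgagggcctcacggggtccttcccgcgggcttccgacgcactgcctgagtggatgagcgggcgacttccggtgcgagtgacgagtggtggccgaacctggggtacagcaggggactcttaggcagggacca
The interferon core stood in a window of 5 of the 42 members, 11.9%, against 3.99% of 27025 genes with windows of the same length. Those members were Psmb3, Psmd4, Psmd9, Psme1 and Psmg4, and in Psme1 and Psmg4 the core lay after the start. The antioxidant core stood in a window of 6 of 42, 14.3%, near the 14.0% of all genes, in Psmb5, Psmb6, Psmc6, Psmd12, Psmd9 and Psme4. In Psme4 it began 7 bases before the start and ran past it. These letters were not in the windows of Psmb8, Psmb9, Psmb10, Psme2 and Psmd1. The windows of Psmb8 and Psmb9 lie wholly within the GENCODE gene bounds given above. Bases upstream of those bounds were not searched in these genes. A match is a description of the sequence, and it was not tested whether any factor binds there.

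Fasted livers at 14 h carried less immunoproteasome RNA than ad libitum livers and more RNA of several 19S subunits and of Psme4. All 3 immunoproteasome catalytic genes and both PA28 genes fell, by 1.11 to 2.20 on the log2 scale, while Psmd1, Psmd9 and Psme4 rose by 0.88 to 0.95. In all, 18 of 49 members were called, 7 higher and 11 lower, against 24.5% of all genes tested (11.8% higher and 12.7% lower). The members' median was -0.18 against -0.04 for all genes. No library of F_14h overlapped with AL_14h in 24 of 49 members, against 38.3% of all genes.

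Psmb10, the immunoproteasome subunit that replaces Psmb7, had 10.7, 14.0 and 10.04 CPM in F_14h and 52.8, 43.1 and 64.4 CPM in AL_14h. All 3 fasted libraries lay far below the lowest AL library, and the log2 fold change was -2.20 ± 0.28 (adjusted p = 6.45e-06). Psmb8, which replaces Psmb5, had 16.9, 20.4 and 15.9 CPM in F_14h and 42.4, 41.4 and 70.7 CPM in AL_14h, a log2 fold change of -1.54 ± 0.33 (adjusted p = 0.00127). Psmb9, which replaces Psmb6, had 5.07, 12.4 and 8.87 CPM in F_14h and 29.1, 21.1 and 45.6 CPM in AL_14h, a log2 fold change of -1.86 ± 0.50 (adjusted p = 0.0078). The groups did not overlap for any of the 3 genes, and AL_14h 3 was the highest library in each. The call of Psmb9 was lost without AL_14h 3 or without F_14h 1, where its adjusted p reached at most 0.0571, while Psmb8 and Psmb10 kept theirs without any single library.

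The subunits of PA28 moved the same way. Psme1 had 47.6, 50.3 and 46.8 CPM in F_14h and 109, 75.4 and 128 CPM in AL_14h (-1.11 ± 0.22, adjusted p = 0.000756). Psme2 had 32.0, 36.0 and 26.4 CPM in F_14h and 84.8, 57.1 and 129 CPM in AL_14h (-1.52 ± 0.32, adjusted p = 0.00107). Neither gene's groups overlapped, and the fasted libraries lay close together while the AL libraries spread widely. The constitutive catalytic subunits differed less. Psmb6 averaged 64.5 ± 9.16 CPM in F_14h and 112 ± 26.8 CPM in AL_14h (SD, n = 3 each), and its log2 fold change was -0.80 ± 0.25 (adjusted p = 0.0198), a call lost without AL_14h 3 or F_14h 3. Psmb5 and Psmb7 were not called, with -0.32 ± 0.23 and -0.18 ± 0.21. The immunoproteasome genes made up 11.3% ± 1.47 of the summed rescaled TPM of the 6 catalytic genes in F_14h and 24.5% ± 1.22 in AL_14h (SD, n = 3 each), and these groups did not overlap.

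The other core genes all had negative log2 fold changes at 14 h, and few were called. Among the 7 alpha subunits the median was -0.44, and Psma4 fell by 0.69. Among the 4 structural beta subunits the median was -0.48, and Psmb1 fell by 0.66. Of the 4 core assembly chaperones, which pair and join the alpha subunits before the barrel closes, Psmg4 fell by 1.61 and Psmg3 by 0.81. Psmg4 had 4.16, 4.33 and 2.19 CPM in F_14h and 15.1, 4.22 and 13.4 CPM in AL_14h, so that AL_14h 2 lay within the fasted range. The base chaperone Psmd10 fell by 0.62 and its groups also overlapped. The calls of Psma4, Psmb1, Psmg4, Psmg3 and Psmd10 were all lost without AL_14h 3. Of the 6 fits that left out 1 library, these calls held in 4, 2, 3, 1 and 3, in that order of genes. Psmb1, Psmg3 and Psmd10 also lost theirs in some of the other settings.

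Of the 19S particle 4 of 17 genes rose and none fell, and the large activator and a base chaperone rose as well. Psmd1 had 179, 174 and 174 CPM in F_14h and 80.9, 99.1 and 98.0 CPM in AL_14h, a log2 fold change of 0.92 ± 0.22 (adjusted p = 0.00363). Psme4, the PA200 activator that caps the core without ubiquitin receptors, had 132, 156 and 152 CPM in F_14h and 68.5, 83.2 and 76.4 CPM in AL_14h, 0.95 ± 0.21 (adjusted p = 0.00181). Psmd9, a chaperone that assembles the ATPase ring of the base, had 56.8, 45.1 and 57.9 CPM in F_14h and 24.7, 29.4 and 32.4 CPM in AL_14h, 0.88 ± 0.23 (adjusted p = 0.00538). In these 3 genes every fasted library lay above every AL library, and the calls held without any single library. Psmd2, the other base scaffold, rose by 0.61, the ubiquitin receptor Psmd4 by 0.59, the lid subunit Psmd12 by 0.49 and the nuclear activator Psme3 by 0.54, but each of these 4 calls was lost in some fits that left out 1 library, and that of Psmd4 in all 6. None of the 6 ATPases was called, and their median was 0.12, while Psmc1 was called higher (0.50) without both kinds of doubted libraries. The 17 genes of the 19S particle together reached 1843 ± 106 CPM in F_14h and 1477 ± 145 CPM in AL_14h (SD, n = 3 each), without overlap.

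**Figure D2:**
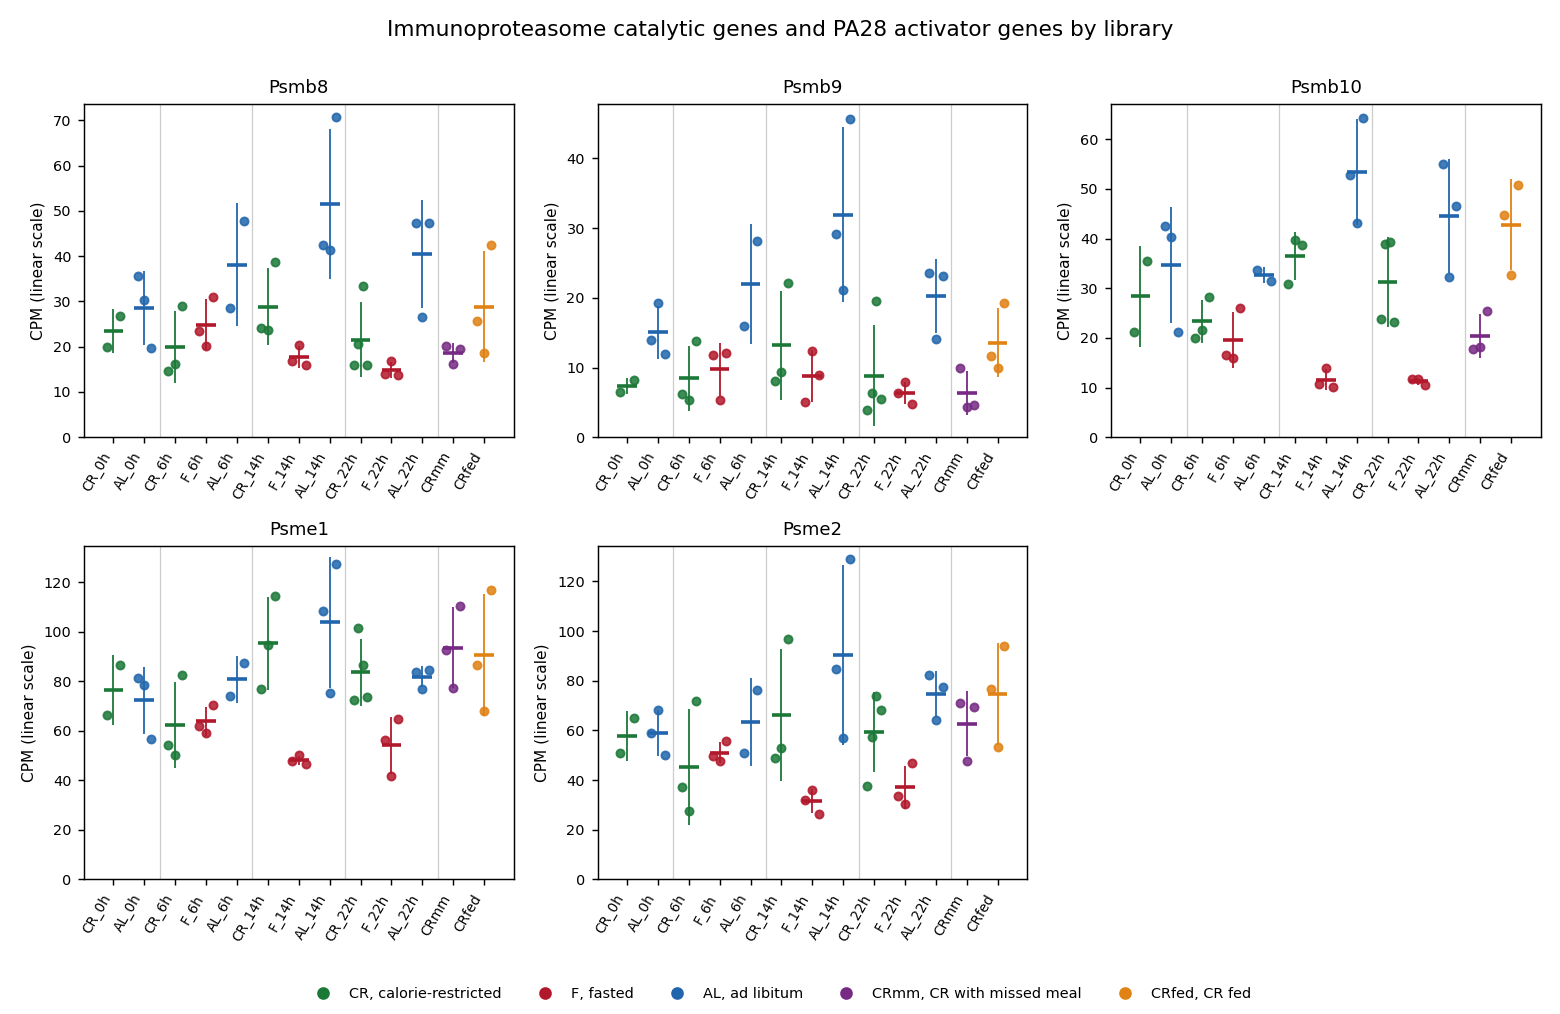
CPM on a linear axis of the immunoproteasome catalytic genes Psmb8, Psmb9 and Psmb10 and of the PA28 genes Psme1 and Psme2, with each of the 38 libraries as a point, the group mean as a bar and 1 SD as a vertical line. Psmb10 lies between 10.04 and 14.0 CPM in F_14h and F_22h, and between 32.3 and 64.4 CPM in AL_14h and AL_22h.

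The genes around the proteasome in F_14h and AL_14h were counted in 4 lists, beside 24.5% of all genes tested that were called. Of 5 genes for NFE2L1 and its processing, Nfe2l1 itself rose by 0.64 ± 0.21 and Ddi2, the protease that frees it, by 0.66 ± 0.24, while Nfe2l2, the related factor of the oxidative stress response, fell by 0.67. Of 7 measured partners, AI314180, whose protein Ecm29 bridges core and 19S particle, rose by 0.78 ± 0.15, and the core maturation factor Pomp and the small lid subunit Shfm1 fell by 0.75 and 1.18. Of 17 ubiquitin and shuttle genes 4 rose, among them the unfoldase Vcp (0.76) and its cofactor Nploc4 (1.01). In that list 2 genes fell, among them Rps27a, a ubiquitin fusion gene, by 1.60. Of 10 genes of antigen presentation and interferon response 2 were called, a smaller share than that of all genes, and 2 had positive log2 fold changes. B2m fell by 0.62 and Irf1, a transcription factor known to drive immunoproteasome genes, by 1.22 ± 0.33. Irf1 had 7.95, 28.9 and 21.0 CPM in F_14h and 49.8, 38.2 and 47.1 CPM in AL_14h, with no overlap.

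Marker genes of other liver cells also differed between F_14h and AL_14h. The summed leukocyte markers overlapped, at 38.1 to 66.8 CPM in F_14h and 46.4 to 51.6 CPM in AL_14h, and 1 of 7 (Nkg7, of cytotoxic lymphocytes) was lower. Kupffer cell and macrophage markers summed to 243 to 379 CPM in F_14h and 181 to 294 CPM in AL_14h, with 1 of 6 higher, and endothelial markers to 154 to 185 CPM in F_14h and 39.7 to 107 CPM in AL_14h, with 4 of 5 higher. Of stellate and pancreas markers 1 of 4 (Reln) and 1 of 3 (Amy2a5) were higher, with sums of 193 to 299 and 3.62 to 37.2 CPM in F_14h and 158 to 224 and 6.85 to 15.9 CPM in AL_14h. Hepatocyte markers summed to 81774 to 102808 CPM in F_14h and 128143 to 134482 CPM in AL_14h, with 1 of 6 higher and 2 lower. Of these lists, 1 pancreas gene was at 0 in all libraries of AL_14h, and no other gene was at 0 throughout a group. Their part in the proteasome differences was not tested. The members tested had a median transcript length of 883 bases, against 1652.5 for all genes tested. Log2 fold changes over all genes rose with transcript length (Spearman's rho 0.243, across genes, which are not independent). With that trend removed the members' median was -0.11. The number called was again 18, but Psmd10 and Psmg3 lost their calls and other members gained one. Psmd1, Psme4 and Psmd9 then stood at 1.10, 1.21 and 1.06, and Psmb10 at -2.02. The number called was 8 without AL_14h 3, 9 without F_14h 3 and 11 without AL_14h 1.

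At 22 h fasted livers again held less immunoproteasome RNA than AL livers. Psmb10 had 11.7, 11.7 and 10.46 CPM in F_22h and 55.1, 32.3 and 46.5 CPM in AL_22h (-1.98 ± 0.28, adjusted p = 6.41e-05). Psmb8 had 14.0, 16.8 and 13.8 CPM in F_22h and 47.4, 26.6 and 47.4 CPM in AL_22h (-1.45 ± 0.33, adjusted p = 0.00505). Psmb9 fell by 1.69 ± 0.51 (adjusted p = 0.0274), with 6.33, 7.86 and 4.75 CPM in F_22h and 23.6, 14.1 and 23.1 CPM in AL_22h. In each of the 3 genes the groups did not overlap, as was so for 18 of 49 members and 34.2% of all genes, and AL_22h 2, whose Dbp level went against its time, was the lowest AL library.

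Psme2 fell by 1.01 ± 0.32 (adjusted p = 0.0347), with 33.6, 30.6 and 47.0 CPM in F_22h and 82.4, 64.3 and 77.5 CPM in AL_22h. Psme1 had 56.2, 41.7 and 64.6 CPM in F_22h and 83.7, 76.9 and 84.7 CPM in AL_22h, without overlap but without a call (-0.59 ± 0.22, adjusted p = 0.0771). Psmd1 was the member that rose, by 0.74 ± 0.22 (adjusted p = 0.0281), with 175, 145 and 114 CPM in F_22h and 72.0, 109.7 and 78.1 CPM in AL_22h. The calls of Psmb9, Psme2 and Psmd1 were each lost without AL_22h 1, AL_22h 3, F_22h 1 or F_22h 2, and that of Psmb9 also without F_22h 3. All 6 ATPases and 10 of 11 other 19S subunits had positive log2 fold changes, with a median of 0.28 in both classes, and of these 17 genes Psmd1 was called. Psme4 (0.62 ± 0.21) and Psmd12 (0.52 ± 0.18) missed the threshold at adjusted p = 0.0521 and 0.0539.

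Thus 5 members were called at 22 h, 1 higher and 4 lower, against 11.5% of all genes (6.06% higher and 5.4% lower), and the members' median was -0.02 against -0.03 for all genes. Log2 fold changes over all genes rose with transcript length at 22 h too (Spearman's rho 0.225). With that trend removed the members' median was 0.12. The immunoproteasome share of the catalytic genes was 9.82% ± 3.35 in F_22h and 21.8% ± 2.57 in AL_22h (SD, n = 3 each). Nfe2l1 (0.74 ± 0.21), AI314180 (0.74 ± 0.15) and Zfand5 (0.58 ± 0.18), whose protein activates proteasomes, rose, and Irf1 fell by 1.19 ± 0.33. The leukocyte markers summed to 25.9 to 50.7 CPM in F_22h and 49.3 to 62.5 CPM in AL_22h, with none of 7 called and all 7 on the negative side (median -0.77). Lyve1 of the endothelial and Reln of the stellate markers were higher and Ttr of the hepatocyte markers was lower. Their part was not tested. The number called was 2 without AL_22h 1, AL_22h 3 or F_22h 1, 3 without F_22h 2 and 8 without F_22h 3. It was 9 without the libraries closest to another diet. Psmd11, Psmd12 and Psme4 were among those higher there, and Psmg1 was lower when the libraries of a deviant clock were left out as well. None of the libraries closest to another diet is in F_22h or AL_22h. Their removal changed the shared fit and not the libraries compared.

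At 6 h no member was called between F_6h and AL_6h, by edgeR, DESeq2 or limma, against 2.34% of all genes by edgeR (1.2% higher and 1.13% lower). There were 8 members with an unadjusted p under 0.05, and the smallest adjusted p was 0.131, for the base chaperone Psmd5 (-0.52 ± 0.18), with 26.8, 26.7 and 19.8 CPM in F_6h and 37.3 and 33.0 CPM in AL_6h. Psmd5 was called lower (-0.56, adjusted p = 0.0393) without both kinds of doubted libraries. Yet 38 of 49 members had a negative log2 fold change, all core and core chaperone genes among them apart from Psma8, and the members' median was -0.26 against -0.02 for all genes. Log2 fold changes over all genes rose with transcript length here as well (Spearman's rho 0.103). With that trend removed the members' median was -0.19. Psmb10 had 16.6, 16.0 and 26.0 CPM in F_6h and 33.7 and 31.5 CPM in AL_6h, a log2 fold change of -0.74 ± 0.30 (adjusted p = 0.217). The libraries of Psmb10 did not overlap between the groups, as was so for 21 of 49 members and 37% of all genes. Psmd9 had 33.8, 49.2 and 39.9 CPM in F_6h and 25.0 and 27.3 CPM in AL_6h (0.65 ± 0.26, adjusted p = 0.214). Whether the difference between F and AL itself changed from 6 to 22 h was tested as an interaction. No member passed by any of edgeR, DESeq2 or limma, the smallest adjusted p was 0.264 (Psmb10), 2 had an unadjusted p under 0.05, and 0.0653% of all genes passed by edgeR. Without both kinds of doubted libraries Psmd1 passed (adjusted p = 0.0418).

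**Figure D3:**
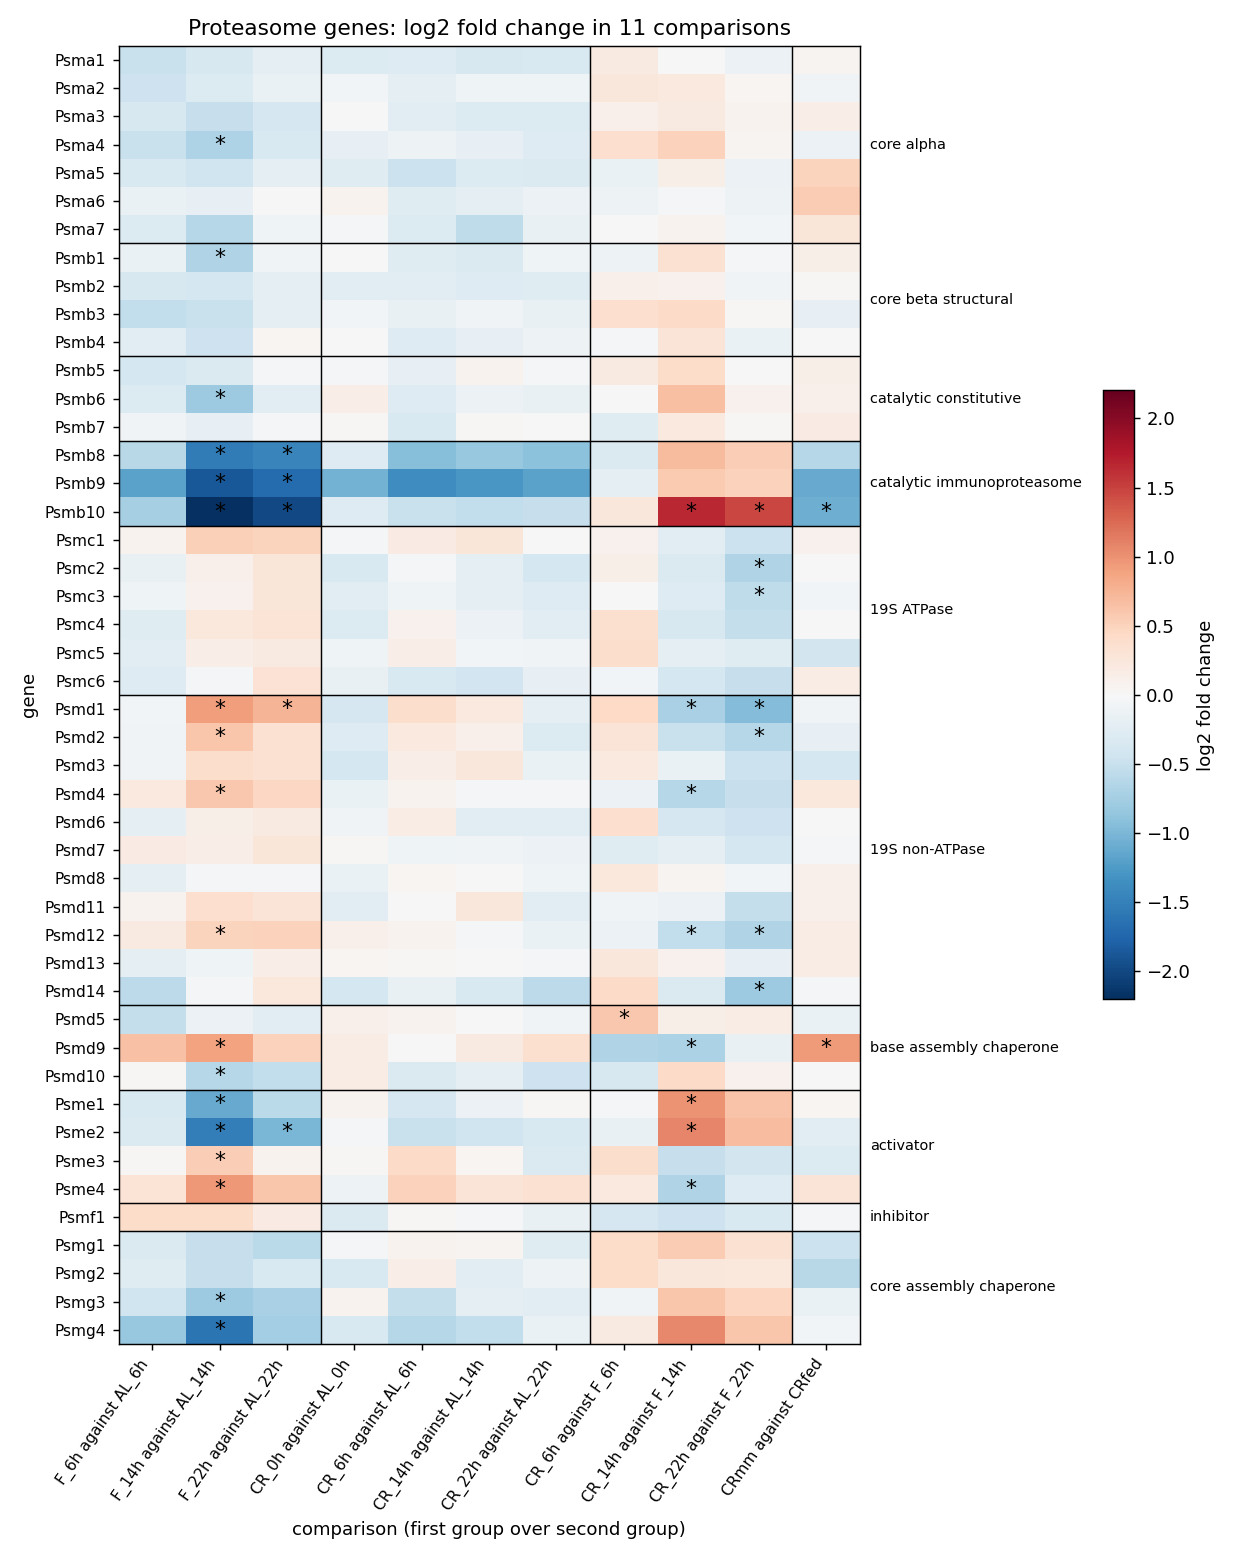
Log2 fold change of 46 proteasome genes (rows, grouped by role) in 11 comparisons (columns, first group over second), with red for higher and blue for lower in the first group and a star for an adjusted p under 0.05 (41 stars). The immunoproteasome rows hold the darkest cells, down to -2.20 for Psmb10 in F_14h against AL_14h.

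Calorie-restricted livers were set against AL livers at 4 times, and no member was called at any of them by edgeR. The AL libraries at 6, 14 and 22 h are those used against the fasted livers. The share of all genes called was 0.479% at 0 h, 0% at 6 h, 0.0218% at 14 h (0.00725% higher and 0.0145% lower) and 4.88% at 22 h (2.57% higher and 2.31% lower). Groups did not overlap in 10 members and 28.1% of all genes at 0 h, 5 and 16% at 6 h, 2 and 9.68% at 14 h, and 5 and 15.1% at 22 h. The members with an unadjusted p under 0.05 numbered 0, 3, 3 and 6 in that order of times, and DESeq2 and limma called 0 at 0, 6 and 14 h and 1 each at 22 h. At 22 h, 44 of 49 members had a negative log2 fold change and the median was -0.17, against 0.00 for all genes. Without the libraries closest to another diet, CR_22h 3 and CR_22h 4 among them, the members' median at 22 h was -0.03.

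All 3 immunoproteasome genes had negative log2 fold changes in CR against AL at each time, with medians of -0.29, -0.94, -0.84 and -0.91 at 0, 6, 14 and 22 h. The leukocyte markers had medians of -0.14, -0.27, -0.31 and -1.03 at these times and the Kupffer cell and macrophage markers of 0.14, -0.38, 0.09 and -1.001. At 22 h all 7 leukocyte and all 6 Kupffer cell markers were negative, with Clec4f called. Their sums were 18.2 to 55.2 and 109 to 268 CPM in CR_22h and 49.3 to 62.5 and 279.6 to 381 CPM in AL_22h. Their part in the immunoproteasome values was not tested. Psmb9 had 6.50 and 8.20 CPM in CR_0h and 13.9, 19.3 and 11.9 CPM in AL_0h, which did not overlap (-1.04 ± 0.57, adjusted p = 0.541). At 6 h Psmb8 (-0.94 ± 0.36) and Psmb9 (-1.38 ± 0.54) had an adjusted p of 0.994, and at 14 h Psmb9 (-1.28 ± 0.49) and Psmb8 (-0.84 ± 0.32) had one of 0.375. At 22 h Psmb9 had 3.90, 6.37, 19.6 and 5.46 CPM in CR_22h and 23.6, 14.1 and 23.1 CPM in AL_22h (-1.19 ± 0.45, adjusted p = 0.119), and Psmb8 had 16.0, 20.7, 33.4 and 15.9 CPM in CR_22h and 47.4, 26.6 and 47.4 CPM in AL_22h (-0.91 ± 0.30, adjusted p = 0.0698). Psmd14 had 25.0, 34.9, 25.6 and 25.5 CPM in CR_22h and 36.7, 48.6 and 38.6 CPM in AL_22h, without overlap (-0.58 ± 0.20, adjusted p = 0.0885). For Psmb8 and Psmb9, CR_22h 3 alone reached into the AL range. It is 1 of the libraries that resembled another diet over all variable genes, as were CR_6h 3 and CR_14h 3, which held the highest CR values of both genes at their times.

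Without both kinds of doubted libraries, which leaves 2 CR libraries and 2 or 3 AL libraries at each of 6, 14 and 22 h, Psmb8 and Psmb9 were called lower in CR at these 3 times. Psmb9 then stood at -1.93 at 6 h, -1.87 at 14 h and -2.17 at 22 h, and Psmb8 at -1.31, -1.10 and -1.36, with adjusted p between 0.00405 and 0.0374. At 22 h Psme4 was called higher as well, at 0.63. The choice of those libraries rested on expression in these same data, so these values are not independent of it. Psmb10 was not called in CR against AL in that fit. The interaction of the CR minus AL difference with time was passed by no member in edgeR, DESeq2 or limma, the smallest adjusted p being 0.546 (Psme3), with 0 at an unadjusted p under 0.05, against 0.442% of all genes by edgeR.

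CR and fasted livers were compared to ask how the restricted liver differs from the fasted liver at the same time. These comparisons share their F libraries with those above. At 14 h, 8 members were called, 3 higher in CR and 5 lower, against 17.1% of all genes (9.1% higher and 7.97% lower), with a median of 0.09 against 0.03 for all genes. Log2 fold changes over all genes fell with transcript length here (Spearman's rho -0.212). With that trend removed the members' median was -0.05. Psmb10 had 30.9, 39.8 and 38.7 CPM in CR_14h and 10.7, 14.0 and 10.04 CPM in F_14h, a log2 fold change of 1.65 ± 0.28 (adjusted p = 0.000147). Psme1 was higher in CR_14h by 0.98 ± 0.22 and Psme2 by 1.08 ± 0.32. Psmd1, Psmd9, Psme4, Psmd4 and Psmd12 were lower in CR_14h, by 0.54 to 0.71. Psmb8 (0.70 ± 0.33) and Psmb9 (0.58 ± 0.49) were not called. Without CR_14h 3, and also without both kinds of doubted libraries, Psmb10 and Psme1 were the 2 members called, and without F_14h 1 or F_14h 3 the number was 3.

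At 22 h, 7 members were called, Psmb10 higher in CR and 6 lower, against 9.44% of all genes (5.13% higher and 4.32% lower), with a median of -0.12 against 0.01 for all genes. With the trend over transcript length (Spearman's rho -0.154) removed, the members' median was -0.19. Psmb10 had 23.8, 39.0, 39.2 and 23.2 CPM in CR_22h and 11.7, 11.7 and 10.46 CPM in F_22h, and every CR library lay above every fasted one (1.47 ± 0.26, adjusted p = 0.000484). Psmd1 had 93.9, 87.9, 53.0 and 62.9 CPM in CR_22h and 175, 145 and 114 CPM in F_22h, again without overlap (-0.96 ± 0.21, adjusted p = 0.00295). All 17 genes of the 19S particle had negative log2 fold changes, and Psmd14, Psmd12, Psmc2, Psmd2 and Psmc3 were the others called. The 19S sum was 1170 ± 256 CPM in CR_22h (SD, n = 4) and 1670 ± 212 CPM in F_22h (SD, n = 3). Without F_22h 1 the number called was 2, and without CR_22h 2 it was 12. Without both kinds of doubted libraries, Psmb10 and Psmd1 stayed called, the other 5 calls were lost, and Psmc6 (-0.73), Psme1 (0.71) and Psmg1 (0.71) were gained. At 6 h Psmd5, which guides assembly of the base, was the member called, against 6.8% of all genes (3.39% higher and 3.41% lower), with 38.6, 40.3 and 32.4 CPM in CR_6h and 26.8, 26.7 and 19.8 CPM in F_6h (0.60 ± 0.16). Groups did not overlap for Psmd5, as for 13 of 49 members and 27.7% of all genes. That call was lost without CR_6h 1, CR_6h 2 or F_6h 3. Without both kinds of doubted libraries it was kept (0.73), and Psmd1 (0.69), Psme3 (0.47) and Psmd9 (-0.69) were called as well.

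**Figure D4:**
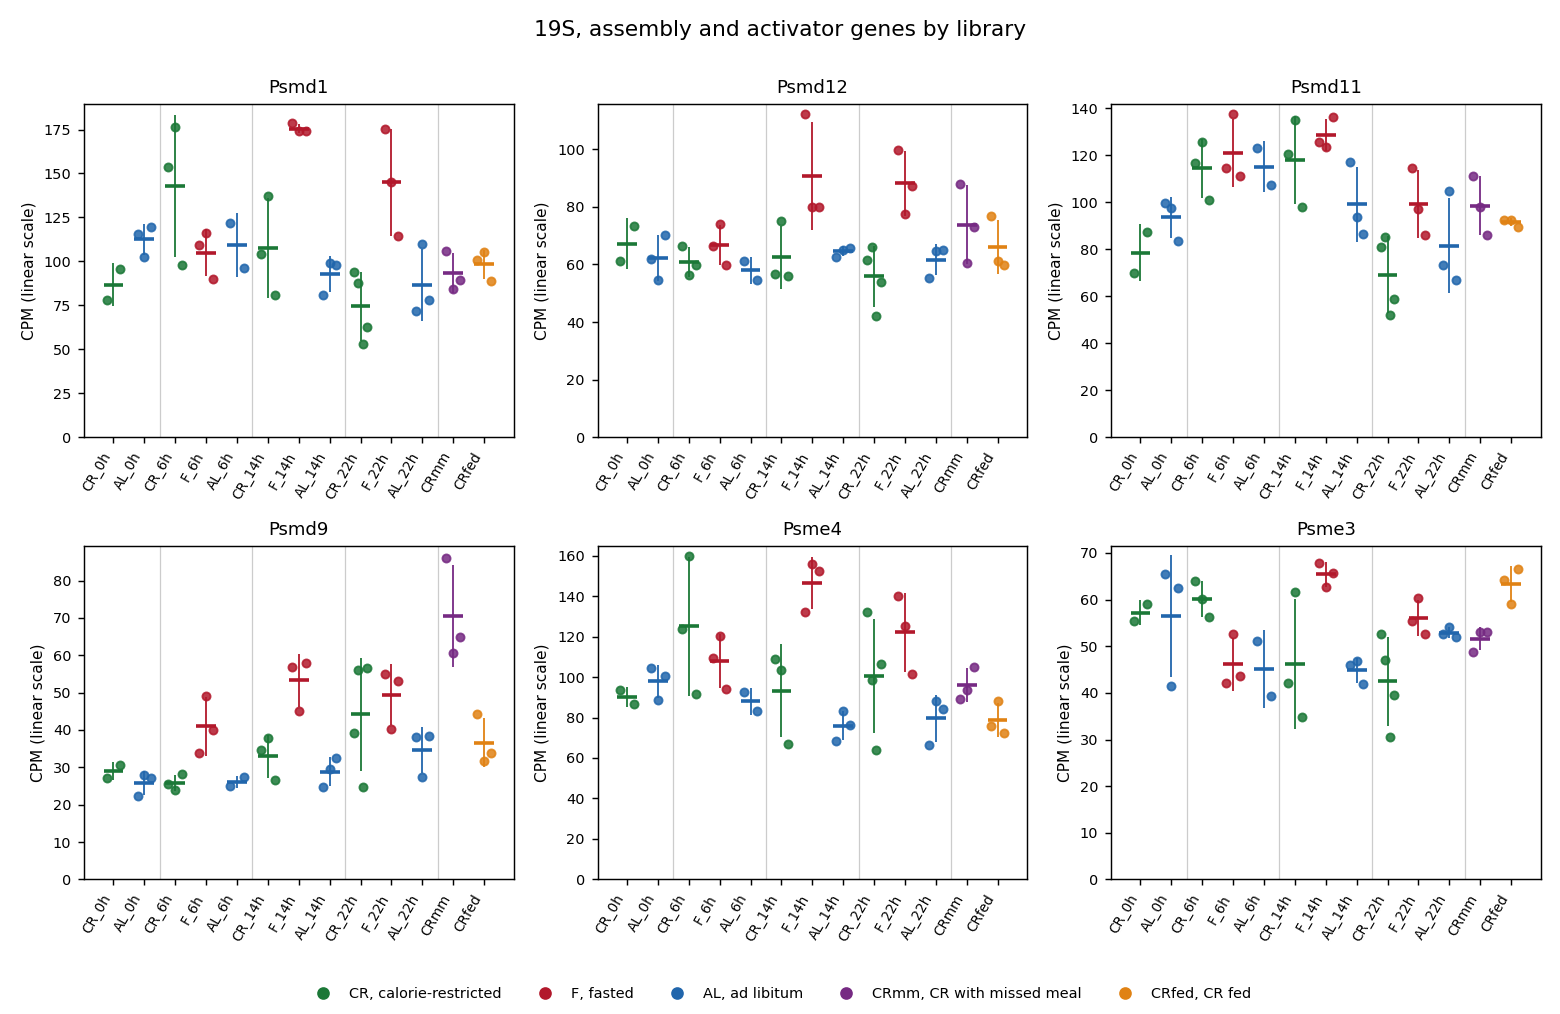
CPM on a linear axis of the 19S genes Psmd1, Psmd12 and Psmd11, the base chaperone Psmd9 and the activators Psme4 and Psme3, with each of the 38 libraries as a point, the group mean as a bar and 1 SD as a vertical line. Psmd1 lies between 174 and 179 CPM in F_14h and between 53.0 and 93.9 CPM in CR_22h.

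Cell markers differed in these comparisons too. At 14 h the endothelial Pecam1 and Lyve1, the pancreas gene Amy2a5 and the hepatocyte gene Tat were lower in CR_14h, and Ttr of hepatocytes and Krt19 of bile ducts were higher. At 22 h Ttr was higher and Apoa1 lower in CR_22h, and all 6 Kupffer cell and macrophage markers were on the negative side without a call (median -0.93). The leukocyte markers summed to 40.2 to 48.7 CPM in CR_14h and 38.1 to 66.8 CPM in F_14h, and to 18.2 to 55.2 CPM in CR_22h and 25.9 to 50.7 CPM in F_22h, with none called. The part of these cells was not tested.

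Around the proteasome, Nfe2l1 and Ddi2 were lower in CR than in fasted livers at 6 h, by 0.68 and 0.81, and neither was called at 14 or 22 h. Of the partners at 14 h, AI314180 was lower in CR_14h by 0.59 and Usp14, a deubiquitinase of the 19S particle, by 0.70, while Shfm1 was higher by 0.99. The Vcp cofactor Nploc4 was lower in CR by 0.67 at 14 h and 0.65 at 22 h.

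Within a diet, 6 of 49 members were called over 0, 6, 14 and 22 h in CR livers, a smaller share than the 20.6% of all genes. They were Psmd11 (adjusted p = 0.00306), Psmd1, Psmd3, Psmd14, Psmd9 and Psmd2. Psmd11, a lid subunit, had 70.0 and 87.1 CPM in CR_0h, 116, 126 and 101 CPM in CR_6h, 121, 135 and 97.7 CPM in CR_14h, and 80.9, 85.1, 52.1 and 58.6 CPM in CR_22h. Its levels were highest at 6 and 14 h, and no library of these times overlapped with 0 or 22 h. Psmd1 (adjusted p = 0.00772) was highest at 6 h with 154, 176 and 97.9 CPM, against 53.0 to 93.9 CPM at 22 h. Psmd9 ran differently, with 25.7, 23.9 and 28.1 CPM at 6 h and 39.2, 56.0, 24.9 and 56.5 CPM at 22 h. The number called was 3 without CR_0h 1, CR_6h 1, CR_6h 2 or CR_22h 4, and 0 when only CR libraries were fitted. Without both kinds of doubted libraries Psmd11, Psmd1, Psmd3 and Psmd9 stayed called, Psmd14 and Psmd2 were lost, and Psmb5 and Psmb7 were gained.

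In AL livers no member was called over the same times by edgeR, DESeq2 or limma. The smallest adjusted p was 0.447 (Psma7), with 1 at an unadjusted p under 0.05, against 0.276% of all genes by edgeR. In fasted livers over 6, 14 and 22 h edgeR and limma called none and DESeq2 1, with 15 at an unadjusted p under 0.05, against 2.86% of all genes by edgeR. The smallest adjusted p was 0.0958, for the ATPase Psmc4, followed by 0.125 for Psmb10. Without both kinds of doubted libraries Psmd1 (adjusted p = 0.0118), Psmc4, Psmb10 and Psme3 were called. Psmd1 had 109, 116 and 89.8 CPM in F_6h, 179, 174 and 174 CPM in F_14h and 175, 145 and 114 CPM in F_22h. Whether the course over time differs between diets was covered by the interaction tests above.

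When calorie-restricted mice missed their expected meal, 2 members changed, and they were Psmb10 and Psmd9. Psmb10 had 17.7, 18.1 and 25.4 CPM in CRmm and 44.8, 32.8 and 50.8 CPM in CRfed, so that it fell by 1.07 ± 0.27 on the log2 scale (adjusted p = 0.009). Psmd9 had 86.0, 60.5 and 64.9 CPM in CRmm and 44.2, 31.7 and 33.9 CPM in CRfed, and rose by 0.94 ± 0.23 (adjusted p = 0.00648). Neither gene's groups overlapped, as for 7 of 49 members and 34.5% of all genes, and both calls held without any single library, CRmm 1 included, and under all other settings. These 2 of 49 members, 1 in each direction, compare with 12.5% of all genes (6.34% higher and 6.13% lower), and the median was -0.01 for members and for all genes.

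Psmb9 had 9.96, 4.27 and 4.67 CPM in CRmm and 11.6, 9.88 and 19.2 CPM in CRfed (-1.11 ± 0.50, adjusted p = 0.148, and 0.0387 without both kinds of doubted libraries), and Psmb8 had 20.2, 16.1 and 19.6 CPM in CRmm and 25.7, 18.5 and 42.4 CPM in CRfed (-0.63 ± 0.32, adjusted p = 0.218). The groups of both genes overlapped. The immunoproteasome share of the catalytic genes was 8.63% ± 0.556 in CRmm and 15.9% ± 2.78 in CRfed (SD, n = 3 each), without overlap. The PA28 genes were not called, with 0.05 ± 0.22 for Psme1 and -0.25 ± 0.31 for Psme2, and the 19S sum was 1512 ± 243 CPM in CRmm and 1523 ± 180 CPM in CRfed.

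Of the genes around the proteasome, the polyubiquitin gene Ubb had 1189.8, 979.5 and 1216 CPM in CRmm and 483, 382 and 696 CPM in CRfed, without overlap (1.12 ± 0.22, adjusted p = 0.00103). Zfand5 rose by 0.68, Zfand2a, a proteasome-associated stress gene, by 0.62, and Ngly1, which removes glycans from NFE2L1, by 0.50. In the antigen presentation list 2 of 10 genes were called, both lower, against 12.5% of all genes. The peptide transporter Tap2 fell by 1.16 ± 0.25. All 10 genes had negative log2 fold changes, the highest being -0.000147. Red cell markers were higher in CRmm (3 of 3 called, 3133 to 9775 CPM against 580 to 1440 CPM in CRfed), as were 2 of 5 endothelial markers. Of 4 stellate markers 1 was called higher and 1 lower, with sums of 270 to 335 CPM in CRmm and 192 to 209 CPM in CRfed. Leukocyte markers overlapped, at 27.1 to 41.7 CPM in CRmm and 21.7 to 51.8 CPM in CRfed, with none of 7 called. The part of these cells in the result was not tested.

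**Figure D5:**
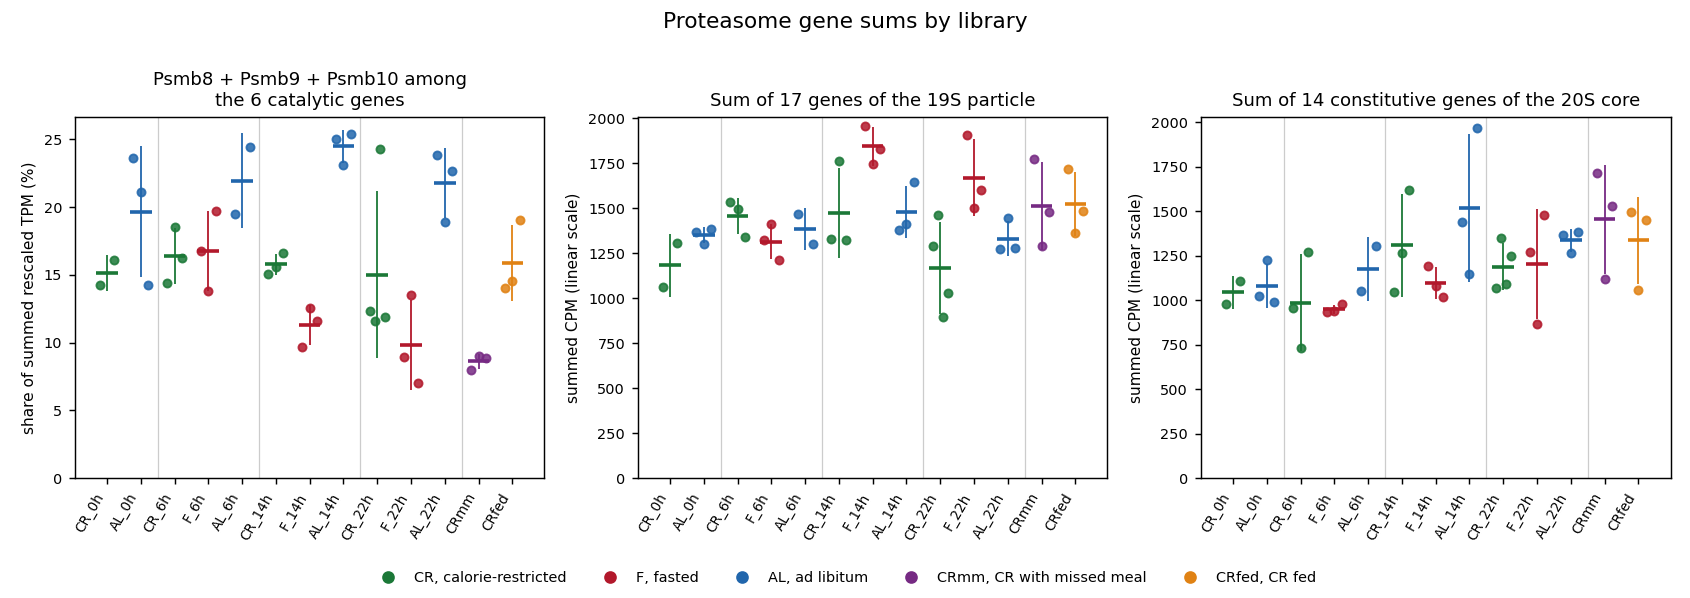
The share of Psmb8, Psmb9 and Psmb10 in the summed rescaled TPM of the 6 catalytic genes, the summed CPM of the 17 genes of the 19S particle and the summed CPM of the 14 constitutive core genes, with each library as a point, the group mean as a bar and 1 SD as a vertical line. The share is 11.3% in F_14h, 24.5% in AL_14h and 8.63% in CRmm, and the 19S sum reaches 1843 CPM in F_14h.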

How the data were processed

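RNA of 38 liver libraries was made into poly(A) libraries with a non-directional kit and sequenced as pairs of 150 bases, per the labels' protocols. The deposited expected counts were estimated per gene with RSEM 1.2.3 over Bowtie alignments with at most 2 mismatches to protein-coding genes of GRCm38, per the labels and the submitters' processing notes. Because strand was not kept, reads of overlapping and antisense genes cannot be told apart. The deposited rescaled TPM values, a normalized signal, were TPM that the authors rescaled with EBSeq against possible batch effects, per the labels.

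Expected counts were rounded and fitted with edgeR 4.0.16 (quasi-likelihood F test, TMM scaling, filterByExpr, R 4.3.3) in 1 model of all 38 libraries with a term per group, which left 13786 genes and a common dispersion of 0.0785. P-values were adjusted with the Benjamini-Hochberg method over all genes tested, with a threshold of 0.05. The standard error of a log2 fold change was derived from its F statistic. Sums and shares over members were not tested. The members and lists were chosen with earlier results of these data known. The catalytic subunits, Psmd4, Psmd14, Psme1 and Psme2 were to be named throughout, and in each comparison the 5 called members of largest change in each direction at a mean of at least 5 CPM, or the 3 of smallest p where fewer than 3 were called. Other members, and the other called ones, were named after their values were seen.

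Alternatives were DESeq2 1.42.0 size factors or test, no filter on low counts, a replicate block, the compared libraries alone, removal of the trend with transcript length (lowess span 0.3), limma 3.58.1 on log2(rescaled TPM + 1) and on log2(rescaled TPM + 0.1) at a mean of at least 1, and leaving out each library. Leaving out the libraries that resembled another diet or deviated in Dbp, by over 3 on the log2 scale from the rest of their group, was added after seeing the data. Same-numbered libraries correlated by over 0.1 in 8 of 30 pairs, among them 3 of 3 pairs of CRmm and CRfed. The replicate block was fitted to all 38 libraries with a shared term for each replicate number. It left 2 members called in CRmm against CRfed. A pairing of CRmm with CRfed alone was not fitted. On counts simulated for F_14h against AL_14h (13563 genes), edgeR found 97 of 100 genes given a log2 change of 2 and 56 of 100 given a change of 1, and called 13 of 13363 genes given none. The changed genes had a mean of at least 5 CPM, and all other genes kept the same mean in all groups. In the data 24.5% of genes were called in this comparison, so these rates need not hold there. Promoters came from RefSeq (GRCm38.p6), and 8 members had no entry. Results for some genes of the pathway lists are not reported here.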

Additional observations from a re-analysis of the deposited data

Results flagged for a closer look

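In CR_22h, the group with 4 libraries, a library far from the other 3 was found for 3 of 49 members, with a gap to its nearest neighbour above the 95% critical value of Dixon's test. Chance alone marks about 1 in 20 groups. Psmb9 had 19.61 CPM in CR_22h 3, against 3.90, 6.37 and 5.46 CPM in the other libraries of the group. CR_22h 3 is also among the libraries that resembled another diet. Psmd14 had 34.87 CPM in CR_22h 2, against 25.0, 25.6 and 25.5 CPM in the others, and Psma1, an alpha subunit of the core, had 74.06 CPM in CR_22h 2, against 63.9, 62.9 and 63.2 CPM in the others. CR_22h 2 was marked by neither the Dbp rule nor the diet rule. Its summed CPM of all members was the highest of the group, at 3358 against 2848, 2461 and 2757 in CR_22h 1, CR_22h 3 and CR_22h 4. The causes were not tested.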

How the results depend on the processing

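Across 41 calls of a member in a comparison of groups, no log2 fold change reversed in sign under any alternative, 15 calls held without each library in turn, 21 under all other settings, and 14 under both. These 14 were Psmb10, Psmb8, Psmd1, Psmd9, Psme1, Psme2 and Psme4 in F_14h against AL_14h, Psmb10 and Psmb8 in F_22h against AL_22h, Psmb10 and Psme1 in CR_14h against F_14h, Psmb10 in CR_22h against F_22h, and Psmb10 and Psmd9 in CRmm against CRfed.

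Without each library in turn, the members called ranged from 8 to 18 in F_14h against AL_14h, 2 to 8 in F_22h against AL_22h, 0 to 2 in CR_22h against AL_22h, 0 to 1 in CR_6h against F_6h, 2 to 10 in CR_14h against F_14h, 2 to 12 in CR_22h against F_22h, and 3 to 7 over time in CR.

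With the replicate block, 9 members were called in F_22h against AL_22h and 3 over time in CR, and the other counts stayed within 1.5 times. Only CRmm and CRfed had every same-numbered pair correlated by over 0.1, and the block was not fitted to these groups by themselves.

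Fitting the compared libraries alone gave 0 in CR_6h against F_6h, 3 in CR_14h against F_14h, 1 in CR_22h against F_22h, 0 over time in CR and 2 over time in F. DESeq2 gave 1 in CR_22h against AL_22h and 1 over time in F. Limma gave, with either pseudocount, 1 in CR_22h against AL_22h and 2 in CR_6h against F_6h.

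Without the libraries closest to another diet, the counts were 9 in F_22h against AL_22h, 1 in CR_6h against AL_6h, 2 in CR_14h against AL_14h, 3 in CR_22h against AL_22h, 3 in CR_6h against F_6h, 2 in CR_14h against F_14h and 3 over time in F. Without both kinds of doubted libraries they were 1 in F_6h against AL_6h, 9 in F_22h against AL_22h, 2 in CR_6h against AL_6h, 2 in CR_14h against AL_14h, 3 in CR_22h against AL_22h, 4 in CR_6h against F_6h, 2 in CR_14h against F_14h, 4 over time in F and 1 for the change of F minus AL over time. The cause was not tested. Groups of 2 to 4 libraries limit what could be called, and Psma8, Psme2b and Psmc3ip had median counts of 14.5, 5 and 5, too few for a precise fold change.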
